A study of Mus musculus with 13 samples.

Results

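Pancreatic duct marker genes are genes whose RNA or protein is used to recognise the epithelial cells that line the ducts of the pancreas. The 9 described here were Krt19, Krt7, Krt8, Krt18, Sox9, Cftr, Spp1, Muc1 and Car2. They were found by their Entrez gene number in a table of RNA levels, and all 9 were among its 23366 genes. RNA was measured in whole pancreas by sequencing 1 library from each of 13 female mice, after removal of ribosomal RNA. All mice were of the reprogrammable i4F-B strain. It carries a cassette, inserted into the Pparg gene, from which doxycycline induces the reprogramming factors OCT4, SOX2, KLF4 and MYC (OSKM) in tissues throughout the body. The young group (4 mice, 13 weeks of age) and the old group (5 mice, 55 weeks of age) were untreated. The old-OSKM group (4 mice, labelled as 58 weeks of age) had received doxycycline with sucrose in the drinking water for 7 days, followed by 2 weeks of recovery without it. No untreated mouse received doxycycline, so induction of the cassette, doxycycline, sucrose and the 3 weeks of age between the old and old-OSKM groups cannot be told apart.

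The pancreatic ducts carry the enzymes made by acinar cells to the intestine and add a bicarbonate-rich fluid to them. Duct cells secrete that fluid in response to secretin, with carbonic anhydrase supplying bicarbonate and CFTR carrying chloride and bicarbonate across the cell surface that faces the duct lumen. They form a small share of the organ, most of which is acinar tissue. Several duct markers are not limited to ducts: acinar cells also make keratins 8 and 18, and macrophages and stromal cells can make osteopontin.

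Levels are given as log2 RPKM, where RPKM is the number of reads scaled by transcript length and by the mapped reads of the library, so levels of different genes can be compared. The values had been quantile normalized, which gives every mouse the same set of values, and the number of reads behind each value is not in the table. In whole tissue, fewer duct cells and less RNA per duct cell cannot be told apart. The organ's acinar character was plain in every mouse: Ctrb1, the most abundant of 17 acinar genes, averaged 2208 RPKM, while the RPKM of all 9 duct markers summed to between 51.8 and 70.6. Ctrb1 had a log2 RPKM of 11.11 in each of the 13 mice. Such identical values at the top of the table come from quantile normalization, so Ctrb1 cannot show a difference between mice.

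3 libraries stood apart, and differences that moved most without them are also given without them. Mouse old-OSKM 4 had the lowest value of the 13 mice for 44.7% of all genes and the highest for 16%, and it had the highest value for 6 of 7 endothelial, 7 of 11 fibroblast and stellate and 9 of 16 islet genes. Of the 9 duct markers it was highest for 5 and lowest for 1. Mouse old-OSKM 1 was highest for 10 of 10 lymphocyte, 8 of 11 macrophage and 6 of 7 adipocyte genes and lowest for 13 of 16 islet genes. In mouse young 4, the summed RPKM of the 11 fibroblast and stellate genes was 63.5, against 33.4 to 37.1 in the other young mice. Other mice had extremes too. Mouse old 3 was lowest for 9 of 9 mesothelial, 9 of 11 fibroblast and stellate, 7 of 11 macrophage and 5 of 7 endothelial genes, and mouse young 2 was highest for 17.7% of all genes. These 2 mice were left out singly but stayed in the fits without the 3 mice. The 3 were chosen after the data were seen, and without them the old-OSKM group holds mice old-OSKM 2 and 3 alone. For genes high in the 3 mice, a smaller difference or a lost call without them was therefore largely fixed in advance. It is given as a description and is not a test.

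Averaged over the 13 mice, the order of levels was Muc1 (mean log2 RPKM 3.91), Krt18 (3.68), Spp1 (3.64), Krt8 (3.24), Krt19 (1.86), Sox9 (1.63), Krt7 (0.27), Car2 (-0.80) and Cftr (-1.24). Krt8 lay above Krt19, Sox9 above Krt7 and Krt7 above Car2 in 13 of 13 mice, by mean log2 differences of 1.38, 1.37 and 1.06. Neighbours whose mean difference was smaller than its SD over the mice were Krt18 and Spp1 (mean log2 difference 0.04, SD 0.49, Krt18 higher in 8 of 13 mice), Muc1 and Krt18 (0.23, SD 0.24, 11 of 13), Spp1 and Krt8 (0.41, SD 0.49, 12 of 13), and Car2 and Cftr (0.44, SD 0.51, 11 of 13). Krt19 exceeded Sox9 by 0.22 (SD 0.18, 11 of 13). The levels ran from 0.433 RPKM on average for the chloride channel gene Cftr to 15.2 RPKM for the mucin gene Muc1. More than 98% of all genes had a lower mean than Muc1, Krt18 and Spp1, whereas Cftr stood above 48.1% of genes.

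The keratins build the intermediate filaments of epithelial cells as pairs of 1 acidic and 1 basic chain. Krt8 and Krt7 code for basic chains and Krt18 and Krt19 for acidic ones. On mouse build GRCm38, Krt7 (chr15:101412403-101427806), Krt8 (chr15:101996711-102004342) and Krt18 (chr15:102028216-102032026) lie on chromosome 15, and Krt19 (chr11:100140810-100145926) on chromosome 11. Krt8 is on the minus strand and Krt18 on the plus strand, so that their starts face each other across 23873 bases.

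Krt8 log2 RPKM was 3.35, 3.28, 3.19 and 3.33 in young mice 1 to 4, 3.21, 3.19, 3.06, 3.26 and 3.19 in old mice 1 to 5, and 3.49, 3.29, 3.10 and 3.13 in old-OSKM mice 1 to 4. The 3 groups overlapped, with all 5 old mice below the young mean of 3.29 and the highest value in mouse old-OSKM 1. Krt18 log2 RPKM was 3.82, 3.91, 3.57 and 3.85 in the young mice, 3.52, 3.43, 3.40, 3.81 and 3.64 in the old mice, and 3.92, 3.79, 3.61 and 3.61 in the old-OSKM mice. For Krt18, 4 of 5 old mice lay below the young mean of 3.79 and all 4 old-OSKM mice above the old mean of 3.56, again with overlapping groups. Krt8 shares sequence with a processed pseudogene and is overlapped by an antisense gene, and the library kit does not mark strand, so its level is uncertain to that extent.

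Because Krt8 and Krt18 varied together over the mice, the 250 bases before their RefSeq starts (GRCm38.p6) are shown, Krt8 from the minus strand (chr15:102004343-102004592) and Krt18 from the plus strand (chr15:102027966-102028215).
Krt8 promoter: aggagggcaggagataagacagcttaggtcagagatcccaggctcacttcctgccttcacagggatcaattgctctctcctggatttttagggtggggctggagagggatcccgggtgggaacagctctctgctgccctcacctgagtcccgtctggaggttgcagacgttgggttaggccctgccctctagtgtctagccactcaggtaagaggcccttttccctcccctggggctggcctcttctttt
Krt18 promoter: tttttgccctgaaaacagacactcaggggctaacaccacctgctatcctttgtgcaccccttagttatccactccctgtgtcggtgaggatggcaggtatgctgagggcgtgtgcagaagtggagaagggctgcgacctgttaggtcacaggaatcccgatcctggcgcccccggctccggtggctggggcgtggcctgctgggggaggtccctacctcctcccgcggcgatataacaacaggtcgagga
Of the 9 genes, 6 had such a sequence in the table used. Each was searched on both strands for TATAAA (the TATA box, present in 12.4% of 32851 windows of the same length before mouse gene starts), GGGCGG (the GC box, 32.7%), CCAAT (33.8%), TGANTCA (the AP-1 site, 6.75%) and GGAATG (the TEAD site, 12.6%). Neither the Krt8 nor the Krt18 window held any of the 5, which says only that these letters are not in these stretches. The Krt7 window held 4 GC boxes and the Cftr window 6.

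Krt19, the keratin most used to mark pancreatic ducts, had log2 RPKM of 1.75, 2.07, 2.00 and 1.76 in the young mice, 2.02, 1.66, 2.08, 1.81 and 1.81 in the old mice, and 1.68, 1.80, 1.91 and 1.80 in the old-OSKM mice. High and low mice occurred in each untreated group, and the old-OSKM values fell inside the range of the old ones. Krt7 log2 RPKM was 0.32, 0.31, 0.28 and 0.59 in the young mice, 0.00, -0.10, 0.27, 0.72 and 0.24 in the old mice, and 0.13, 0.09, -0.09 and 0.72 in the old-OSKM mice. Mice old-OSKM 4 (1.65 RPKM) and old 4 (1.64 RPKM) had the highest Krt7 values, and the groups overlapped.

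Sox9 codes for a transcription factor that is kept on in duct cells and is needed by the progenitors of the embryonic pancreas. Its log2 RPKM was 1.64, 1.57, 1.76 and 1.63 in the young mice, 1.64, 1.68, 1.55, 1.57 and 1.45 in the old mice, and 1.70, 1.61, 1.65 and 1.77 in the old-OSKM mice. Sox9 had the smallest spread of the 9 genes, with an SD of 0.0875 over the 13 mice. Among 2732 genes within 0.5 log2 units of its mean level, 12.3% had a smaller SD.

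The genes of bicarbonate secretion were the lowest of the 9. Cftr codes for the chloride and bicarbonate channel that is mutated in cystic fibrosis. Cftr log2 RPKM was -1.22, -0.92, -1.82 and -0.97 in the young mice, -1.28, -1.22, -1.32, -1.05 and -1.04 in the old mice, and -1.83, -1.36, -1.27 and -0.78 in the old-OSKM mice. The extremes lay within the young and old-OSKM groups, with mice young 3 and old-OSKM 1 lowest and mouse old-OSKM 4 highest. Car2 codes for a cytosolic carbonic anhydrase, the enzyme that turns carbon dioxide and water into bicarbonate and protons. Car2 log2 RPKM was -0.98, -0.89, -0.24 and -0.72 in the young mice, -0.87, -1.04, -0.98, -1.11 and -0.66 in the old mice, and -0.42, -1.03, -1.34 and -0.10 in the old-OSKM mice. The old-OSKM mice held both the highest and the lowest Car2 value, so the groups overlapped throughout.

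Spp1 codes for osteopontin, a secreted phosphoprotein of duct cells, macrophages and stroma. Spp1 log2 RPKM was 3.36, 3.61, 3.61 and 4.40 in the young mice, 3.25, 3.68, 3.21, 3.17 and 3.27 in the old mice, and 4.03, 3.55, 3.36 and 4.83 in the old-OSKM mice. On the linear scale the 3 highest mice were old-OSKM 4 at 28.5 RPKM, young 4 at 21.2 and old-OSKM 1 at 16.3, while the other 10 lay between 8.98 and 12.8. These were the 3 libraries that stood apart. Spp1 had the largest SD of the 9 genes, 0.501, and 95.6% of the 297 genes of similar level had a smaller SD.

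Muc1 codes for a mucin anchored in the cell surface that lines the duct lumen. Its log2 RPKM was 3.92, 4.20, 3.96 and 3.99 in the young mice, 3.92, 3.87, 3.83, 4.07 and 4.02 in the old mice, and 3.86, 3.81, 4.09 and 3.27 in the old-OSKM mice. Mouse old-OSKM 4, which had the highest Spp1 value, had the lowest Muc1 value, and the other 12 mice overlapped between groups. The stretches before the starts of these 2 genes, highest and lowest in the same mouse, are shown from the plus strand, Spp1 at chr5:104434861-104435110 and Muc1 at chr3:89228806-89229055, with motif matches in capitals.
Spp1 promoter: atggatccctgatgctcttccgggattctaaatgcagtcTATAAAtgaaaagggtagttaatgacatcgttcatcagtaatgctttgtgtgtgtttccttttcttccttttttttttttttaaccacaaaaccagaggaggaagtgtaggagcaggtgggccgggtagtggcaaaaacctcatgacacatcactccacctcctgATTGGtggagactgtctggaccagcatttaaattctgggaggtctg
Muc1 promoter: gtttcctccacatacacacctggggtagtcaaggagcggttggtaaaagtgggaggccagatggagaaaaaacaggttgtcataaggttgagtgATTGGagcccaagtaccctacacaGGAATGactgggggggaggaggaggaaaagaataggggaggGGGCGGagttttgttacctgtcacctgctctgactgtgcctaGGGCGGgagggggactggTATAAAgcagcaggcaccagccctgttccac
In Muc1 the TATA box begins 31 bases before the start, with GC boxes at 91 and 49, a CCAAT box on the opposite strand at 156 and a TEAD site at 132. In Spp1 a TATA box begins 211 bases before the start and a CCAAT box on the opposite strand 46 bases before it. RefSeq lists another Spp1 start inside the gene, whose window held none of the 5 motifs. A match is a stretch of letters and says nothing of whether a factor binds there.

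**Figure D1:**
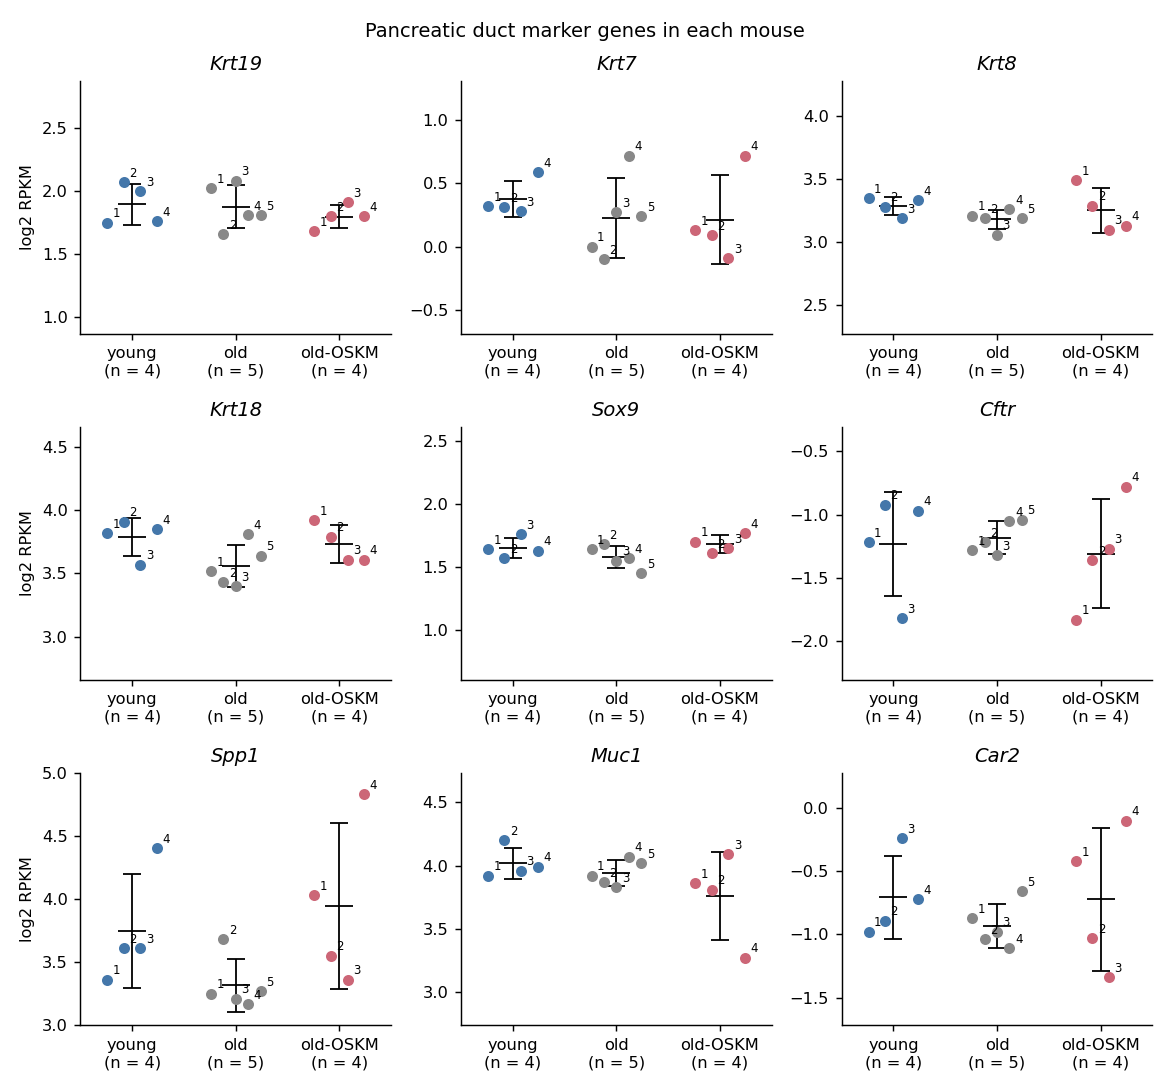
Log2 RPKM of the 9 duct marker genes in each mouse (points, numbered by mouse), with the group mean and SD (bars); every vertical axis spans 2 log2 units. The groups overlap for all 9 genes, Sox9 varies least, and Spp1 reaches 4.40 in mouse young 4 and 4.83 in mouse old-OSKM 4.

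The first comparison asked how the duct markers of untreated pancreas differed between 55 and 13 weeks of age. Mean levels were lower in the old mice for 8 of the 9 genes, Cftr being the exception, and the median log2 difference was -0.10, against 0.00 over all 23366 genes, of which 54.4% had a higher mean in the old mice. None of the 9 passed both thresholds in limma, a raw p under 0.01 together with a more than 1.5-fold difference, which 0.886% of all genes passed. At a raw p under 0.05 alone the count was also 0, against 5.52% of all genes, and at a Benjamini-Hochberg adjusted p under 0.05 it was 0, against 0.0813%. Groups with no overlap in values were found for 0 of the 9 and for 2.71% of all genes.

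Krt18 came nearest to the raw threshold, with a log2 difference of -0.22 (SE 0.10, 95% interval -0.45 to 0.00), a limma raw p of 0.0529 and an adjusted p of 0.91, and 4 of 5 old mice below the young mean. The difference in its partner Krt8 was -0.10 (95% interval -0.28 to 0.07) with 5 of 5 old mice below the young mean. The Spp1 difference was -0.43 (95% interval -1.06 to 0.20), also with 5 of 5 old mice below the young mean, and it was -0.21 without mouse young 4. Car2 differed by -0.22 (95% interval -0.74 to 0.30) and Krt7 by -0.15 (95% interval -0.56 to 0.25). Krt19 (-0.02, 95% interval -0.24 to 0.20), Sox9 (-0.07, 95% interval -0.20 to 0.06), Muc1 (-0.07, 95% interval -0.37 to 0.22) and Cftr (0.05, 95% interval -0.42 to 0.52) had the differences nearest to 0. Krt7 differed by -0.08 and Cftr by 0.14 without the 3 mice that stood apart. With single mice left out, Krt7 reached -0.27 (raw p 0.125, without mouse old 4) and Car2 -0.07 (without mouse young 3). Krt18 had a raw p under 0.05 in 5 of 21 alternative fits, with differences of up to -0.30 (raw p 0.0157, without mouse young 3) and raw p down to 0.0141 (-0.29, without mouse old 4). For 7 of the 9 genes the 95% interval lay inside a 1.5-fold change in either direction, as it did for 67.9% of all genes, and for Spp1 and Car2 it reached past it.

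The second comparison asked how the markers of old pancreas stood 2 weeks after the OSKM cassette had been induced. Here 5 of the 9 genes had a higher mean in old-OSKM than in old mice, with a median log2 difference of 0.07, against -0.04 over all genes, of which 36.9% were higher. Again 0 of the 9 passed both thresholds in limma, against 0.753% of all genes, 0 had a raw p under 0.05, against 8.07%, and 0 an adjusted p under 0.05, against 0.00428%. Values of the groups were apart for 0 of the 9 and for 1.73% of all genes.

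Spp1 had the largest difference, 0.63 on the log2 scale (SE 0.29, 95% interval 0.00 to 1.26) or 1.55-fold, with a limma raw p of 0.0509 and an adjusted p of 0.547, and 4 of 4 old-OSKM mice above the old mean. It was 0.33 (raw p 0.184) without mouse old-OSKM 4 and 0.14 (raw p 0.356) without mice young 4, old-OSKM 1 and old-OSKM 4. It was larger without mouse old-OSKM 2 (0.76, raw p 0.0346), without mouse old-OSKM 3 (0.82, raw p 0.0177, adjusted p 0.227) and with the run of sample identifiers in the fit (0.68, raw p 0.0449). Krt18 differed by 0.17 (95% interval -0.06 to 0.40) and Sox9 by 0.11 (95% interval -0.02 to 0.23), each with 4 of 4 old-OSKM mice above the old mean. The Krt18 difference was 0.11 (raw p 0.345) without mouse old-OSKM 1 and 0.23 (raw p 0.0377) without mouse old 4. That of Sox9 was 0.07 (raw p 0.232) without mouse old 5 and 0.13 (raw p 0.0538) without mouse old 2. Muc1 differed by -0.19 (95% interval -0.48 to 0.11), by -0.02 without mouse old-OSKM 4 and by -0.30 (raw p 0.043) without mouse old-OSKM 3. The Car2 difference of 0.21 (95% interval -0.31 to 0.73) was 0.00 without mouse old-OSKM 4, 0.41 (raw p 0.0842) without mouse old-OSKM 3 and -0.25 without the 3 mice. Krt8 (0.07, 95% interval -0.10 to 0.24), Krt19 (-0.08, 95% interval -0.30 to 0.13), Krt7 (-0.01, 95% interval -0.42 to 0.39) and Cftr (-0.13, 95% interval -0.60 to 0.34) completed the list. Krt7 differed by -0.23, Sox9 by 0.05, Krt8 by 0.01 and Krt19 by -0.02 without the 3 mice. The intervals of 6 of the 9 lay inside a 1.5-fold change, against 66.3% of all genes, and those of Cftr, Spp1 and Car2 did not.

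The comparison of old-OSKM with young mice shares its old-OSKM samples with the second and its young samples with the first. Mean levels were lower in old-OSKM mice for 7 of the 9 genes, with a median log2 difference of -0.05, against -0.04 over all genes, of which 38.7% were higher. The counts in limma were 0 past both thresholds, against 0.625% of all genes, 0 at a raw p under 0.05, against 5.07%, 0 at an adjusted p under 0.05, against 0.0428%, and 0 with groups apart, against 1.9%. Muc1 had the largest difference, -0.26 (95% interval -0.57 to 0.06, raw p 0.0981), with 3 of 4 old-OSKM mice below the young mean, and it was -0.10 without mouse old-OSKM 4 and -0.37 (raw p 0.02, adjusted p 0.344) without mouse old-OSKM 3. Spp1 differed by 0.20 (95% interval -0.46 to 0.86) with 2 of 4 mice above the young mean, and by -0.10 without mouse old-OSKM 4. The other 7 differences lay between -0.16 for Krt7 and 0.04 for Sox9. Car2 moved most without the 3 mice, from -0.01 to -0.48 (raw p 0.0686), and Krt7 was -0.31 without them and -0.33 (raw p 0.0765) without mouse old-OSKM 4 alone. The means of Krt18 in young, old and old-OSKM mice were 3.79, 3.56 and 3.73, and those of Spp1 3.75, 3.32 and 3.95.

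**Figure D2:**
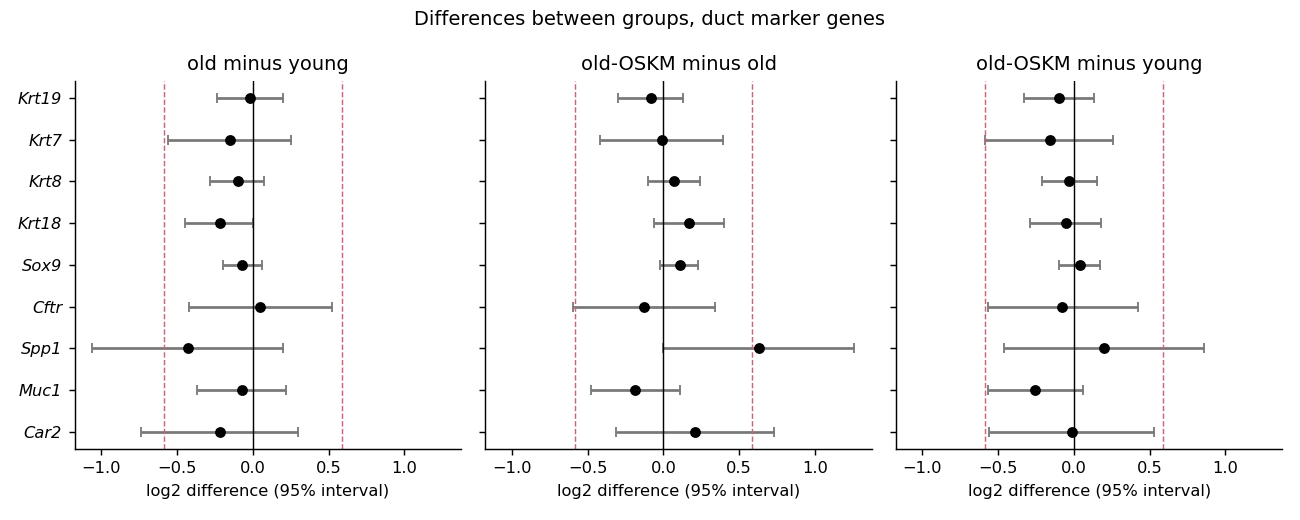
Log2 difference in RPKM between groups for the 9 duct marker genes in the 3 comparisons (points) with 95% intervals from limma (bars); the solid line is no difference and the dashed lines a 1.5-fold change. No interval lies wholly beyond a dashed line, and the widest are those of Spp1.

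The 9 genes did not vary over the mice as a block. Of the 36 pairs, 20 had a positive and 16 a negative Pearson r over the 13 mice, with a median of 0.06, and 1 pair had an adjusted permutation p under 0.05. That pair was Krt8 and Krt18, the partner keratins (r = 0.82, permutation p = 0.00047, adjusted over 36 pairs 0.0169; Spearman rho = 0.80, permutation p = 0.00166, adjusted 0.0598). Their r was 0.74 without the 2 mice farthest from the Krt8 median, old 3 and old-OSKM 1, it was 0.79 with values centred on group means, and 0.80 in the 10 mice whose sample identifiers ran from 609 to 621. The other 3 mice, with identifiers 641 to 643, are too few for a value. The count of 1 pair fell to 0 without mouse old 3, without mouse old-OSKM 1, and without the 3 mice that stood apart.

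Spp1 and Car2 had the next highest r, 0.66 (permutation p = 0.0136, adjusted 0.245; rho = 0.49, permutation p = 0.0886, adjusted 0.532), and Spp1 and Muc1 the most negative, -0.65 (permutation p = 0.0317, adjusted 0.299; rho = -0.25, permutation p = 0.401, adjusted 0.792). Without mice young 4 and old-OSKM 4, farthest from the Spp1 median, these became 0.49 and -0.22, so the negative r of Spp1 with Muc1 rests largely on those mice. Within the 10 mice of the first identifier run they were 0.87 and -0.79, and that run holds mouse old-OSKM 4. Krt19 and Krt8, both epithelial keratins, had an r of -0.51 (permutation p = 0.0744, adjusted 0.358; rho = -0.54, permutation p = 0.0608, adjusted 0.509), -0.52 without mice old 3 and young 2, farthest from the Krt19 median, and -0.49 within the first run.

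**Figure D3:**
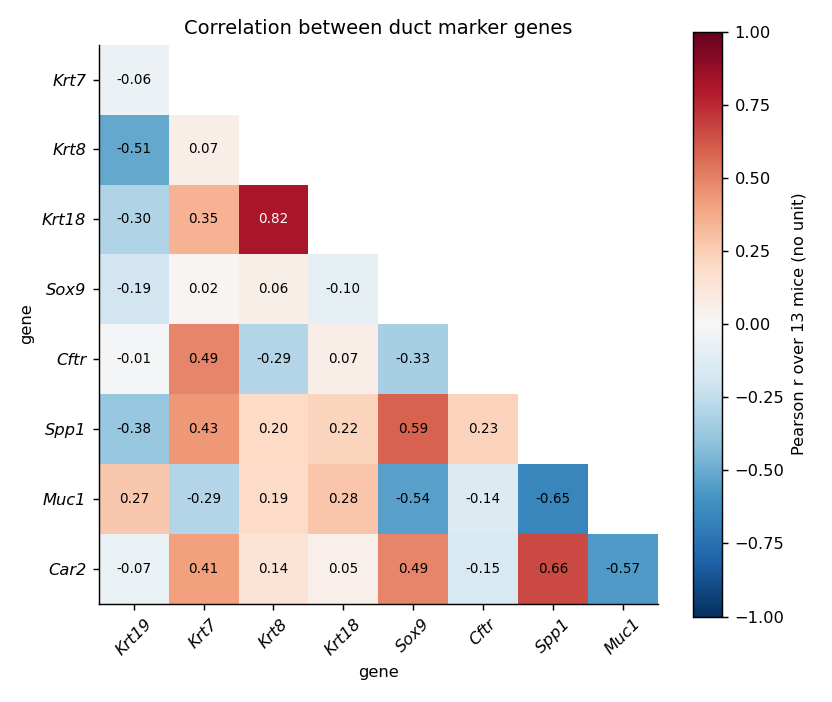
Pearson r over 13 mice for each of the 36 pairs of duct marker genes (both axes list the genes; colour and number give r, which has no unit). Krt8 with Krt18 is the highest at 0.82 and Spp1 with Muc1 the lowest at -0.65.

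The genes whose levels over the mice were most like Krt19, among 8403 genes with a mean log2 RPKM above 0, were Msh3 (r = 0.83, rho = 0.85), Ldhb (0.80, 0.61), Phkb (0.80, 0.83), Usp45 (0.79, 0.77) and Slc16a12 (0.78, 0.73). With the mean z-score of the 9 duct markers the 5 most alike were Serpinf1 (r = 0.90, rho = 0.87), Sparc (0.90, 0.91), Rarres2 (0.88, 0.90), Cdh5 (0.87, 0.85) and Mmp2 (0.87, 0.82). These r describe 13 mice, were picked as the highest of 8403 and carry no test. Sparc and Mmp2 code for a matrix protein and a matrix protease, and Cdh5 for the cadherin of endothelial cells. The mean z-score was highest in mice young 4 (0.57), young 2 (0.51) and old-OSKM 4 (0.49) and lowest in mice old 2 (-0.52) and old 3 (-0.49).

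Other genes of duct function were followed in 5 lists. Of 20 genes of ductal fluid secretion, 8 had a higher mean in old than in young mice (median log2 difference -0.03), 12 a higher mean in old-OSKM than in old mice (0.05) and 10 in old-OSKM than in young mice (0.00). 1 of the 20 passed both thresholds in limma, Kcnma1, which codes for the large-conductance calcium-activated potassium channel. It did so between old and young mice, where 0.886% of all genes passed, and between old-OSKM and young mice, where 0.625% passed. Kcnma1 log2 RPKM was 0.23, -0.18, 0.19 and 0.06 in the young mice, 1.59, 1.23, 1.67, 1.71 and 1.41 in the old mice, and 1.15, 1.27, 1.32 and 2.13 in the old-OSKM mice. Every old and old-OSKM mouse lay above every young mouse.

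Kcnma1 rose by 1.45 on the log2 scale from young to old mice (SE 0.19, 95% interval 1.04 to 1.86, limma adjusted p 0.0203, 5 of 5 old mice above the young mean). It was also higher in old-OSKM than in young mice, by 1.39 (SE 0.20, 95% interval 0.96 to 1.83, adjusted p 0.0387, 4 of 4 mice). Both calls held with each of the 13 mice left out in turn, and without the 3 mice that stood apart the differences were 1.44 and 1.22. Kcnma1 is also made by smooth muscle and nerve cells, and which cells of these pancreata made it was not tested.

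Among the secretion genes that did not pass both thresholds, Slc4a4, the sodium bicarbonate cotransporter that loads duct cells, had a log2 difference of -0.49 in old relative to young mice (raw p 0.00669, adjusted p 0.558). Slc9a3r1, a scaffold protein that binds CFTR, differed by 0.21 in old-OSKM relative to old mice (raw p 0.00357, adjusted p 0.547). Slc26a6, an apical chloride and bicarbonate exchanger, differed by -0.21 in old-OSKM relative to old mice (raw p 0.045) and by -0.22 between old-OSKM and young mice (raw p 0.0437), the former being -0.11 (raw p 0.201) without the 3 mice that stood apart. Sctr, the secretin receptor, was listed at a mean log2 RPKM of -2.51 over the 13 mice. It was named after its level was seen, as the receptor of the hormone that drives duct secretion.

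None of 18 duct regulators passed both thresholds in limma in any comparison. At a raw p under 0.05 the counts were 2 between old and young mice, 5 between old-OSKM and old mice and 0 between old-OSKM and young mice, where all genes gave 5.52%, 8.07% and 5.07%. The same shares of all genes stand behind the counts of the lists that follow. For both thresholds together the shares, in the same order, were 0.886%, 0.753% and 0.625%. Ehf, an epithelial ETS factor, differed by -0.35 between old and young mice (raw p 0.0154), and Tead1, a DNA-binding partner of YAP1, by 0.23 (raw p 0.0269). The receptor gene Notch2 differed by 0.39 in old-OSKM relative to old mice (raw p 0.0119) and Prox1, a homeobox factor of the developing pancreas, by 0.40 (raw p 0.0209), but by 0.13 and 0.15 without the 3 mice that stood apart. Klf5 (-0.16, raw p 0.0744) and Sox4 (-0.20, raw p 0.0949) had the smallest p between old-OSKM and young mice, and were -0.07 and -0.08 without those 3 mice. The adjusted p of each of these 6 genes was 0.547 or more.

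Of 24 genes of the duct cell surface and its junctions, 12 were higher in the first group of each comparison and 0 passed both thresholds in limma, with 3, 4 and 1 at a raw p under 0.05 in the order of the comparisons above. Without the 3 mice that stood apart, the claudin gene Cldn1, named after its values were seen, passed both against young mice in the old and in the old-OSKM group. In this setting 194 and 139 of all 23366 genes passed. Cldn1 was lower than in the young mice each time. Its log2 RPKM was low, and nearly the same in the old-OSKM mice left, 2 and 3 (-3.56 and -3.54). Whether reads lie behind such low values is unknown. The tight junction genes Cldn7 and Cldn4 differed by 0.21 (raw p 0.0159) and -0.39 (raw p 0.0406) between old and young mice. Ocln, which codes for the junction protein occludin, differed by -0.31 (raw p 0.0124) and Prom1, which codes for the membrane protein prominin 1, by -0.15 (raw p 0.0219) between old-OSKM and old mice. The Ocln difference was -0.16 (raw p 0.0333) without the 3 mice. Lamb3, a laminin chain of the basement membrane, differed by -0.48 (raw p 0.0422) and the mucin gene Muc20 by 0.52 (raw p 0.077) between old-OSKM and young mice, against -0.23 (raw p 0.32) and 0.19 (raw p 0.615) without the 3 mice.

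Duct cells bear a primary cilium, and 0 of 12 cilium genes passed both thresholds in limma in any comparison. At a raw p under 0.05 the counts were 0, 2 and 0. Ift88 and Ift122 code for proteins of transport along the cilium. Ift88 differed by -0.31 in old-OSKM relative to old mice (raw p 0.0243) and by -0.20 between old-OSKM and young mice (raw p 0.139), and Ift122 by -0.20 between old and young mice (raw p 0.0648). Dcdc2a, a doublecortin-domain gene, differed by -0.25 between old and young mice (raw p 0.0857) and by 0.33 between old-OSKM and old mice (raw p 0.0312). Pkhd1, which codes for the cilium protein fibrocystin, differed by 0.27 between old-OSKM and young mice (raw p 0.198). Without the 3 mice that stood apart, Dcdc2a in old-OSKM relative to old mice was 0.14 (raw p 0.368) and Pkhd1 in old-OSKM relative to young mice 0.10 (raw p 0.405), and Pkhd1 ranged from 0.03 to 0.36 with each mouse left out in turn. The summed RPKM of the 12 genes was 21.9 in mouse old-OSKM 4 and between 13.7 and 16.4 in the other 12, and 7 of the 12 genes were highest in that mouse.

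Of 20 genes of metaplastic or injured ductal epithelium, 10 were higher and 10 lower in old-OSKM than in old mice. In limma 2 of the 20 passed both thresholds, Gkn3 and Mmp7, against 0.753% of all genes. At a raw p under 0.05, 4 were higher and 1 was lower, against 8.07% of all genes. Gkn3 codes for a gastrokine of the stomach lining. Gkn3 log2 RPKM was -2.81, -2.02, -2.86 and -2.23 in the young mice, -2.81, -2.89, -2.82, -2.81 and -2.83 in the old mice, and -2.43, -1.22, -2.01 and -1.61 in the old-OSKM mice. All 4 old-OSKM mice lay above all 5 old mice, whose values were nearly the same and low, as were those of mice young 1 and young 3. Whether any reads lie behind these low values is not in the table, so no size or p of the Gkn3 difference is given.

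Mmp7 codes for matrilysin, a protease made by injured and metaplastic duct epithelium. Mmp7 log2 RPKM was -2.17, -1.43, -1.84 and -0.75 in the young mice, -2.17, -1.41, -2.15, -2.92 and -1.49 in the old mice, and 0.76, -1.01, -1.69 and 0.24 in the old-OSKM mice. The high values were those of mice old-OSKM 1 and old-OSKM 4, and the groups overlapped. In old-OSKM relative to old mice the log2 difference was 1.60 (SE 0.50, raw p 0.00839, adjusted p 0.547). With each mouse left out in turn it passed both thresholds 6 of 13 times, losing the call without young 2, young 3, old 1, old 3, old 4, old-OSKM 1 or old-OSKM 4, and it was 0.68 (raw p 0.146) without the 3 mice that stood apart. In the other comparisons 0 of the 20 passed both thresholds in limma, with 1 at a raw p under 0.05 in each. Between old and young mice the smallest p were those of the mucin gene Muc5ac (1.28, raw p 0.0141) and the tuft cell gene Dclk1 (-0.50, raw p 0.0593). Between old-OSKM and young mice Mmp7 differed by 1.12 (raw p 0.0575, and 0.46 without the 3 mice). Muc5ac between old and young mice passed both thresholds without mouse old 1, and was 1.24 (limma raw p 0.0529) without the 3 mice. In old-OSKM relative to old mice Muc5ac differed by -1.14 (limma raw p 0.0245). Its log2 RPKM lay between -5.20 and -2.45, and whether reads lie behind such low values is unknown.

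Markers of other cell types in the tissue also differed between mice and groups. All 11 fibroblast and stellate genes had a lower mean in old than in young mice (median log2 difference -0.38) and 10 of 11 a higher mean in old-OSKM than in old mice (0.59). Their summed RPKM was 35.6, 37.1, 33.4 and 63.5 in the young mice, 30.0, 30.9, 25.3, 32.0 and 29.2 in the old mice, and 49.2, 34.3, 31.4 and 86.0 in the old-OSKM mice, and the most abundant was Dcn at 14.9 RPKM. The 3 mice with the highest sums were also the 3 with the highest Spp1. Col1a1 (-0.93) and Col3a1 (-1.04) passed both thresholds between old and young mice, and Col1a1 (0.88), Col1a2 (0.89) and Thy1 (0.85) between old-OSKM and old mice. Without the 3 mice that stood apart the counts were 3 and 0, against 194 and 85 of all 23366 genes. The differences were then -0.71 for Col1a1 and -0.77 for Col3a1 between old and young mice. Between old-OSKM and old mice they were 0.44 for Col1a1, 0.40 for Col1a2 and 0.41 for Thy1. With each of the 13 mice left out in turn, the calls between old and young mice held 12 times for Col1a1 and 9 times for Col3a1. Those between old-OSKM and old mice held 8 times for Col1a1, 4 times for Col1a2 and 8 times for Thy1.

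All 11 macrophage genes had a higher mean in old-OSKM than in old mice (median 0.76, 8 at a raw p under 0.05) and than in young mice (0.70), while 2 of 11 had a higher mean at the old age than at the young. Their summed RPKM was 50.4 in mouse old-OSKM 1, 41.4 in old-OSKM 4 and 27.3 in young 4, and between 12.4 and 21.4 in the other 10, with Lyz2 most abundant at 6.66 RPKM. C1qc alone passed both thresholds (1.02 between old-OSKM and old mice), a call that held 4 of 13 times with single mice left out and was lost without the 3 mice (0.44, raw p 0.0289). All 7 endothelial genes had lower means in the old mice than in the young (median -0.30) and higher means in the old-OSKM mice than in the old (0.34), with 0 past both thresholds in limma and 1, 0 and 0 at a raw p under 0.05. Their summed RPKM was 35.0 in mouse old-OSKM 4, 27.5 in young 4 and 14.3 to 18.3 in the others, and Plvap was most abundant at 5.74 RPKM. The part of stromal, macrophage and endothelial RNA in the Spp1 values was not tested.

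All 10 lymphocyte genes had higher means in old than in young mice (median 0.92) and in old-OSKM than in old mice (0.59), with summed RPKM of 2.15 to 4.04 in young, 4.06 to 10.7 in old and 5.33 to 20.6 in old-OSKM mice and Jchain most abundant at 2.48 RPKM. Jchain passed both thresholds between old and young mice (2.35), and Jchain (3.04), Cd3g, Cd79b (1.91) and Ms4a1 (1.77) between old-OSKM and young mice. Without the 3 mice that stood apart 0 of the 10 did so, against 194 and 139 of all 23366 genes. Mouse old-OSKM 1, highest for all 10, is among those left out. The differences themselves were then 2.18 for Jchain between old and young mice, and 2.22 for Jchain, 0.99 for Cd79b and 1.61 for Ms4a1 between old-OSKM and young mice. With single mice left out the call of Jchain held 8 of 13 times between old and young mice, and the later calls held 13 times for Jchain, 3 for Cd3g, 10 for Cd79b and 6 for Ms4a1. Cd3g was nearly the same and low in all 4 young mice (-3.15 to -3.08), so the size of its difference is not given. Adipocyte genes were higher in old-OSKM than in old mice for 7 of 7, with summed RPKM of 13.3 and 14.9 in mice old-OSKM 1 and 4. Several of the 7 were nearly the same and low in 4 of 5 old mice, so their median difference is not given. Fabp4 was most abundant at 4.44 RPKM, with a mean log2 RPKM of 1.67 in old and 2.31 in old-OSKM mice. Mice old-OSKM 2 and 3, at 4.45 and 4.50, lay inside the range of the old mice, 3.75 to 6.57. Plin1 passed both thresholds between old-OSKM and old mice, a call that held 7 of 13 times with single mice left out and was lost without the 3 mice. It was nearly the same and low in 4 of 5 old mice (-3.44 to -3.39), so the size of its difference is not given. Islet genes were lower in old-OSKM than in old mice for 16 of 16 (median -0.54, 0 past both thresholds in limma, 2 at a raw p under 0.05), with Ins2 most abundant at 131 RPKM and summed RPKM from 83.1 in mouse old-OSKM 1 to 520 in mouse old-OSKM 4.

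Of 9 mesothelial genes measured, 8 had lower means in the old mice than in the young (median -0.51) and 8 had higher means in the old-OSKM mice than in the old (0.73), with Nkain4 highest by mean log2 RPKM (0.887 RPKM on average) and 0 past both thresholds in limma (1, 2 and 1 at a raw p under 0.05). The 8 erythroid genes, led by Hba-a1 at 25.5 RPKM, had 0 past both thresholds and 0 at a raw p under 0.05 in limma. Without the 3 mice that stood apart 2 of the 8 passed both in old-OSKM against young mice, as did 139 of all 23366 genes. That fit holds only mice old-OSKM 2 and 3 of their group. Their summed RPKM was 105 in mouse old-OSKM 4 and 35.3 to 68.8 in the others. Reads of Hba-a1 and its near-identical copy Hba-a2 may have been divided between them. None of the 17 acinar genes passed both thresholds in limma (1, 0 and 1 at a raw p under 0.05), and their summed RPKM was 12797 in mouse old-OSKM 4 and 13268 to 14082 in the others. Both counts of 1 were Pnlip, named after its values were seen, with groups apart each time. It differed by -0.26 between old and young mice (limma raw p 0.000142, adjusted p 0.0923). Between old-OSKM and young mice Pnlip differed by -0.21 (limma raw p 0.00123, adjusted p 0.487). Groups were apart for 2.71% and 1.9% of all genes in these comparisons. Pnlip log2 RPKM was 10.62 in every young mouse, a shared value near the top of the range, as with Ctrb1. Quantile normalization thus narrows the spread behind these p and the separation of the groups, and neither can be taken at face value. The part of these cell types in the duct marker values was not tested.

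**Figure D4:**
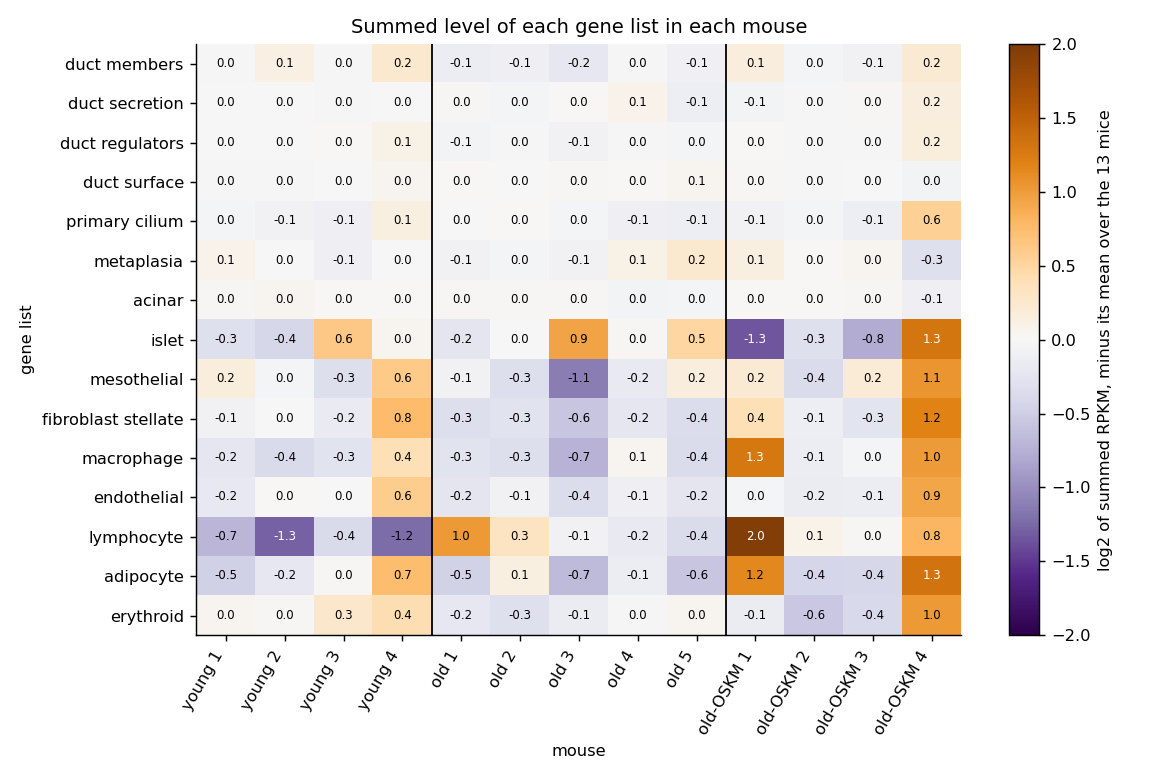
Log2 of the summed RPKM of each gene list in each mouse, minus its mean over the 13 mice (colour and number; rows are lists, columns are mice, lines divide the groups). The duct lists vary little beside the stromal, immune, adipocyte and islet lists, and mice young 4, old 3, old-OSKM 1 and old-OSKM 4 stand out.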

How the data were processed

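RNA-seq libraries from the pancreas of 13 mice, 1 per mouse, were analysed in the 3 groups given by the labels. The RPKM of each Entrez gene is a sum of isoform estimates that the authors made with Casper. These rest on read pairs placed on mm10 by STAR 2.3.0e, without reads that matched 5 or more places. The deposited values are log2 RPKM, quantile normalized by the authors (sorted values differ by at most 0.0116 between mice); the table holds no counts or read totals, so the depth of each mouse is unknown from it and the read-total correction in the study's methods could not be made. Of 23366 genes, 23273 matched a symbol in RefSeq GRCm38.p6, the assembly of mm10. 

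Each difference was fitted with limma 3.58.1 (R 4.3.3) on all genes and all 13 mice, 3 groups in 1 fit, without covariates or a filter on low values. Calls needed a raw p under 0.01 together with a more than 1.5-fold difference, and adjustment of p (Benjamini-Hochberg) is over all 23366 genes. Correlations used two-sided permutation tests with 100000 resamples, adjusted over 36 pairs. Calculations were tested on simulated data (Python 3.11.15, numpy 2.4.6, pandas 2.3.3, matplotlib 3.10.9). Genes named are the 9 duct markers, from the 5 duct-related lists every called gene and the 2 with the smallest raw p in each comparison, the 5 genes most like Krt19 and the 5 most like the mean z-score, and from each list of another cell type described its most abundant gene (highest mean log2 RPKM) and every called gene (1 further list is not used here); a gene named outside this rule is said to be so. The members and lists were chosen with earlier results of these data known. Alternatives were median centring, a minimum mean log2 RPKM of -1, log2(RPKM + 1) and log2(RPKM + 0.1), the compared groups alone, a trended robust variance, the run of sample identifiers (609 to 621 or 641 to 643) as a covariate, and each mouse left out in turn. Leaving out mice young 4, old-OSKM 1 and old-OSKM 4 together, all alternatives for correlations, and those for the other lists were chosen after seeing the data.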

Additional observations from a re-analysis of the deposited data

Results flagged for a closer look

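Of the 27 sets of values given by 9 genes in 3 groups, 2 held a mouse far from the others of its group, where chance gives about 1 in 20. Krt7 had a log2 RPKM of 0.59 in mouse young 4, against 0.28 to 0.32 in the other 3 young mice, and the gap took 0.87 of the group's range. Spp1 had a log2 RPKM of 3.68 in mouse old 2, against 3.17 to 3.27 in the other 4 old mice, and the gap took 0.792 of the range. Without mouse young 4 the Krt7 difference between old and young mice was -0.08, and without mouse old 2 Spp1 in old-OSKM relative to old mice differed by 0.72 (limma raw p 0.0389, adjusted p 0.555).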

How the results depend on the processing

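The count of 0 duct markers past both thresholds in limma, in each of the 3 comparisons, held under every alternative, Cftr not being tested under the minimum mean level. At a raw p under 0.05 alone the count of 0 became 1 in 5 of 21 alternatives for old against young (Krt18), 1 in 6 and 2 in 1 for old-OSKM against old (Spp1, Krt18, Muc1), and 1 in 1 for old-OSKM against young (Muc1). Of the 27 log2 differences, 15 kept their sign throughout and 12 changed it in at least 1 alternative, the largest of these being 0.21 in size; the cause was not tested. Old against young: Krt19 was 0.04 without young 2, 0.02 without young 3 and 0.03 without old 2, and Cftr from -0.14 without young 3 to 0.15 without young 2. Old-OSKM against old: Krt7 was 0.00 with the identifier run as a covariate, 0.11 without old 4, and 0.02, 0.03, 0.09 and -0.18 without old-OSKM 1, 2, 3 and 4. Krt8 was -0.01 without old-OSKM 1 and 0.12 without 3, and Cftr 0.05 without old-OSKM 1 and -0.30 without 4. Without the 3 mice that stood apart, Muc1 was 0.01 and Car2 -0.25. Old-OSKM against young: Krt8 was -0.11, 0.02 and 0.01 without old-OSKM 1, 3 and 4, Sox9 -0.02 without the 3 mice, and Cftr 0.03, -0.27, 0.01 and 0.10 without young 2, young 3, young 4 and old-OSKM 1 and 0.01 without the 3 mice. Spp1 was 0.42 without young 4, -0.10 without old-OSKM 4 and -0.07 without the 3 mice. Car2 was 0.01 on log2(RPKM + 1), 0.19 with the identifier run, and 0.14, 0.09, 0.19 and -0.22 without young 3, old-OSKM 2, old-OSKM 3 and old-OSKM 4, and -0.48 without the 3 mice. The count of correlated pairs was 1 under median centring, with group-centred values and under both pseudocounts, between 0 and 1 with each mouse left out, and 0 without the 3 mice, a set of 10. Groups of 4 or 5 mice and the lack of counts limit the precision of all these values.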

Other observations

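Spp1 was examined further after its values were seen. Among 8403 genes with a mean log2 RPKM above 0, those most like Spp1 over the 13 mice were Slfn5 (r = 0.97, rho = 0.92), Timp2 (0.96, 0.85), Pbxip1 (0.96, 0.86), Igfbp7 (0.96, 0.80) and Dpt (0.96, 0.88). Without mice young 4 and old-OSKM 4, farthest from the Spp1 median, the r of the same genes lay between 0.80 and 0.91. Timp2, Igfbp7 and Dpt code for proteins secreted into the matrix. No duct marker is among these genes, because the 9 were left out of the search, and these r were picked as the highest and carry no test.

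Aqp1, which codes for a water channel of ducts and of capillary endothelium, also caught the eye among the secretion genes. Its log2 RPKM lay between 1.37 and 2.10 in the young mice, was 1.08, 1.19, 0.76, 1.08 and 0.95 in the old mice, and 1.33, 1.38, 0.68 and 2.40 in the old-OSKM mice. All 5 old mice lay below all 4 young mice, with a log2 difference of -0.59 (95% interval -1.20 to 0.02, limma raw p 0.0584, adjusted p 0.934). The duct regulator Onecut1 likewise had all 5 old mice (0.76 to 1.04) below all 4 young mice (1.12 to 1.30), with a log2 difference of -0.26 (raw p 0.175), and a value of 2.05 in mouse old-OSKM 4. Both genes were named after their values were seen. Old and young values did not overlap for 2 of 20 secretion genes, Aqp1 and Kcnma1, and 2 of 18 duct regulators, Onecut1 and Ehf. The share over all genes was 2.71%.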
